A study of Mus musculus with 16 samples.

Results

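Mitochondria and peroxisomes both shorten fatty acids by β-oxidation, and 35 genes that carry out this work were followed through mouse liver under 2 diets and 2 feeding states. The genes were a given list that covers the activation of fatty acids, their carriage across the mitochondrial and peroxisomal membranes, the oxidation cycles of both organelles, the enzymes that remove double bonds, and the proteins that take up the electrons. All 35 were found among the 46078 genes of the count table, and all 35 were among the 15075 genes with enough reads to be tested. By site, 18 were assigned to mitochondria, 10 to peroxisomes, and 7 to both organelles or to other membranes (Acsl1, Slc27a2, Acad11, Eci2, Ech1, Amacr and Crat). The study examined how nutrition shapes the liver transcriptome. Male mice of the strain labelled C56B6/J (C57BL6/J in the study's methods) were placed at 8 weeks of age for 16 weeks on control diet (CD) or on a diet with 60% of its calories from fat (HFD). Livers were then taken from mice fed ad libitum or fasted for 16 h, which gave CD fed, CD fast, HFD fed and HFD fast groups of 4 libraries each. The labels give no genetic change for any of these groups, and they do not say that the 4 libraries of a group came from 4 separate mice, so p-values measure the spread between these libraries.

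Fatty acids enter the pathway as acyl-CoA esters. The carnitine shuttle carries long chains into mitochondria, where acyl-CoA dehydrogenases, hydratases, hydroxyacyl-CoA dehydrogenases and thiolases remove acetyl-CoA in repeated rounds and pass electrons to the respiratory chain through electron transfer flavoprotein. Peroxisomes shorten very long, branched and dicarboxylic fatty acids and hand the products on as carnitine esters. In liver the pathway is known to be induced by fasting, in large part through the nuclear receptor PPARα, which binds DNA together with RXR at a repeat of 2 hexamers spaced by 1 base (a DR1 element).

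Because many members moved together, their promoters were read for that element. The motif searched was AGGTCANAGGTCA, on both strands, and the closest match was taken by the number of mismatches over its 12 fixed bases. Windows of 300 bases, from 250 before to 50 after each annotated start, were taken from RefSeq (GRCm38.p6) and were held for 29 of the 35 members. No member had a match with 0 or 1 mismatch, against 0.554% of all 32851 windows. A match with at most 2 mismatches was found in 3 of the 29 members, against 3.86% of all windows, and one with at most 3 mismatches in 7, against 24.6%. Members were counted by gene, over 31 windows, whereas the shares are by window. The 3 closest matches are shown first, in capitals within 29 bases of the strand of the gene. The one of Slc25a20 lies at chr9:108662134-108662162 and begins 7 bases after the RefSeq start, that of Echs1 lies before the start at chr7:140116484-140116512, and that of Etfa lies before the start at chr9:55512300-55512328 with the motif on the opposite strand.
Slc25a20: ctgaatgtAGGTGAAAGGTCGgcggagcc
Echs1: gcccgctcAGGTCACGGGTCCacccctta
Etfa: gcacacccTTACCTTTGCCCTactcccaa
Of these 3 genes only Slc25a20 was among the members called with fasting on CD. The next 2 sequences belong to the members with the widest change and to a pair that shares its start region. For Ehhadh the 250 bases before the RefSeq start (chr16:21787835-21788084, minus strand) are given with the closest match, which had 4 mismatches, in capitals. Hadha and Hadhb are transcribed away from each other, and the 85 bases between their outermost starts (chr5:30155163-30155247, plus strand) are given with the closest match, also with 4 mismatches, in capitals.
Ehhadh: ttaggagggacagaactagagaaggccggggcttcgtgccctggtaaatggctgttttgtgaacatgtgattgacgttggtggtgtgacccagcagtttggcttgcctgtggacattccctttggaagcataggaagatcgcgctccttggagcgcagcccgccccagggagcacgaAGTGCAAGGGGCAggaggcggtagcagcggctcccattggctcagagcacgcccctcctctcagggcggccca
Hadha and Hadhb: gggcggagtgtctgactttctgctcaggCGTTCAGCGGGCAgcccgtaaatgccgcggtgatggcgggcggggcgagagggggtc
A closest match with 4 mismatches was the most common outcome over all windows (55.2%). These counts describe the letters in these windows only.

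The libraries held 41364448 to 57583153 counted reads. The least covered member in any library, Abcd2, had 403 reads there. Values below are CPM (read counts relative to library size), scaled between libraries by the trimmed mean of M values, and a member was called when its adjusted p in edgeR's quasi-likelihood test (Benjamini-Hochberg over 15075 genes) was under 0.05. Hepatocyte markers were abundant in every library (66712 to 133569 CPM summed over 5 genes). The 4 adipocyte markers summed to at most 2.06 CPM and the 5 pancreatic acinar markers to at most 1.84 CPM. In the HFD fast group replicate 4 stood apart, being the lowest library of its group for 29 of the 35 members, and its scaling factor (1.13) was the highest of the 16. In the HFD fed group replicate 4 was the farthest library, with a chi-square per gene of 142 to 157 against the other 3, which were 35.8 to 67 from each other, and it was the lowest for 19 members. The deviations of these 2 libraries from their group means correlated at 0.662 across genes, which are not independent replicates. Without HFD fed replicate 4 the members called were 28 with fasting on CD, 9 higher and 1 lower with fasting on HFD, 14 with HFD in fed mice, 2 with HFD in fasted mice and 13 in the interaction (of all genes 25.5%, 9.86%, 5.74%, 8.9% and 2.88%), and counts without HFD fast replicate 4 stand beside each comparison.

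Fasting on CD raised most of the pathway. Of the 35 members 28 rose and 0 fell, against 25.2% of all genes called in either direction and 13.7% called higher. The median log2 fold change was 0.95 over the members and -0.01 over all genes tested. Ehhadh, the peroxisomal bifunctional enzyme, rose 8.89-fold, carnitine acetyltransferase Crat 3.14-fold and carnitine palmitoyltransferase Cpt1a 2.73-fold. In 30 members every fasted library lay above every fed library, where 13.1% of all genes did so. The 7 members not called were Acad10, Echs1, Acaa2, Etfa, Scp2, Abcd2 and Abcd3, with log2 changes from -0.03 to 0.51. At an unadjusted p under 0.05, 30 members passed, all with higher estimates, against 37.6% of all genes. The count stayed between 27 and 29 when any 1 library was left out, and without HFD fast replicate 4 it was 28. Over those fits 18.7% to 26.0% of all genes were called, with 26.0% when HFD fast replicate 4 was left out.

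Fasting on HFD raised 14 of the 35 members and lowered 0, against 8.86% of all genes called, 4.78% higher and 4.07% lower. In 10 members every fasted library lay above every fed library (8.02% of all genes) and in 0 below (8.66%), and the median log2 change over the members was 0.37. Of the 14 members called on HFD 13 were also called on CD, where 28 of the 35 members were called. The remaining one was Acad10, an acyl-CoA dehydrogenase family member that was called on HFD alone. How many of all genes were called on both diets was not counted, so the overlap is given as a description only. Single libraries moved this count. Leaving out replicate 1 of the HFD fed group gave 4 members (Acad10, Hadhb, Etfdh and Acaa1a), as did leaving out replicate 1 of the HFD fast group, with the same 4 called. Without HFD fast replicate 3 it was 9, and without replicate 4 of that group it was 18. The share of all genes called in these fits was 3.31%, 4.79%, 4.62% and 6.93%, in the same order.

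Whether the response to fasting differed between the diets was tested by the interaction term, the fasting change on HFD minus that on CD. It was negative in 33 of 35 members with a median of -0.59 (log2), and 9 members were called, each with a more positive change on CD than on HFD, against 2.59% of all genes called, 1.36% negative and 1.23% positive. The 9 were Slc27a2, Acadl, Hadha, Hadhb, Eci2, Decr1, Ech1, Etfb and Ehhadh. Only Echs1 (0.12 ± 0.12 SE) and Acad10 (0.43 ± 0.19) had positive estimates, neither of them called. At an unadjusted p under 0.05, 25 members passed, against 20.2% of all genes. Acadl, Ech1 and Ehhadh were called whichever of the 16 libraries was left out. The count was 4 without CD fed replicate 2, 5 without CD fed replicate 1, HFD fed replicate 2, HFD fed replicate 3 or HFD fast replicate 3, 6 without CD fed replicate 4, CD fast replicate 2 or HFD fast replicate 4. It was 14 when replicate 1 of the HFD fast group was left out. Over all fits without 1 library 0.963% to 3.01% of all genes were called.

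**Figure D1:**
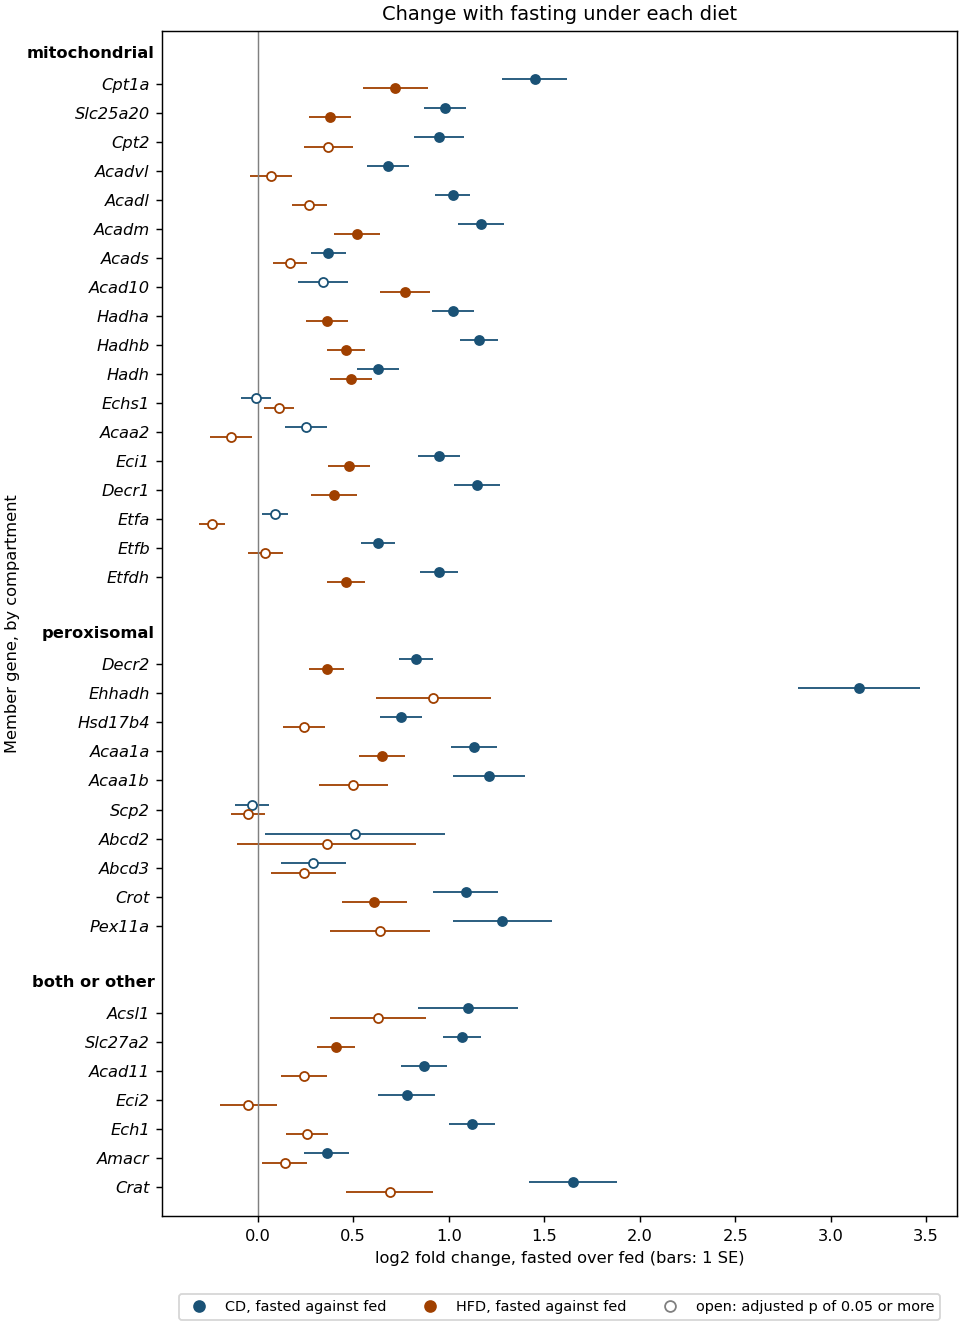
The log2 fold change from fed to fasted mice (horizontal axis) of each of the 35 members, grouped by compartment, on CD (blue) and on HFD (brown), with bars of 1 standard error and filled points for an adjusted p under 0.05. The CD point lies to the right of the HFD point for 33 of the 35 members, and Ehhadh on CD (3.15) lies farthest from 0.

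Estimates of the diet effect lay mostly above 0 in fed and mostly below 0 in fasted mice (30 of 35 members in each), though with libraries scaled by total counts the median in fasted mice was 0.02. In fed mice 12 members were higher on HFD and 0 lower, against 7.50% of all genes called, 3.28% higher and 4.22% lower, with a median log2 change of 0.36. The 12 were Slc27a2, Slc25a20, Cpt2, Acadl, Acadm, Acad11, Hadhb, Eci2, Decr1, Decr2, Ech1 and Crat, and their changes ran from 0.36 to 0.96. In 23 members every HFD fed library lay above every CD fed library, against 7.22% of all genes, and in 0 below, against 8.51%. This count of 12 fell to 7 without CD fed replicate 1, to 5 without CD fed replicate 2, to 7 without CD fed replicate 4 and to 5 without HFD fed replicate 3, and was 14 without HFD fast replicate 4. Of all genes 4.86%, 3.37%, 5.88%, 3.7% and 8.13% were called in these fits, in the same order. In fasted mice 2 members, Etfb and Ehhadh, were lower on HFD and 0 were higher, against 7.70% of all genes called, 4.65% lower and 3.05% higher. Every HFD fast library lay below every CD fast library in 6 members (7.45% of all genes) and above in 0 (6.55%). There the median log2 change was -0.13 and 12 members passed an unadjusted p under 0.05, against 25.9% of all genes. Without HFD fast replicate 4 the count in fasted mice was 0 by edgeR's quasi-likelihood test, where 3.51% of all genes were called. In that fit 6 members had an unadjusted p under 0.05, a threshold that 25.9% of all genes passed with all libraries. The share of all genes past it without that library was not counted, so the 2 are not compared. With all libraries DESeq2 called 6 members lower and limma-voom 2, where 12.5% and 6.77% of all genes were called. The count was 1 without CD fast replicate 1, CD fast replicate 2 or HFD fast replicate 3, and 4 when replicate 1 of the HFD fast group was left out, with 4.71%, 4.61%, 3.61% and 7.43% of all genes called. When libraries were scaled by their total counts, the median of all genes moved to 0.17 in this contrast and the members had a median of -0.15 relative to it, as they had under the main scaling. With that scaling 1 member was called higher (Hadh) and 1 lower (Ehhadh), and 88.1% of the calls over all genes were higher, against 39.6% under the main scaling. The comparison in fed mice shares the CD fed libraries with the fasting comparison on CD, and that in fasted mice shares the CD fast libraries with it.

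**Figure D2:**
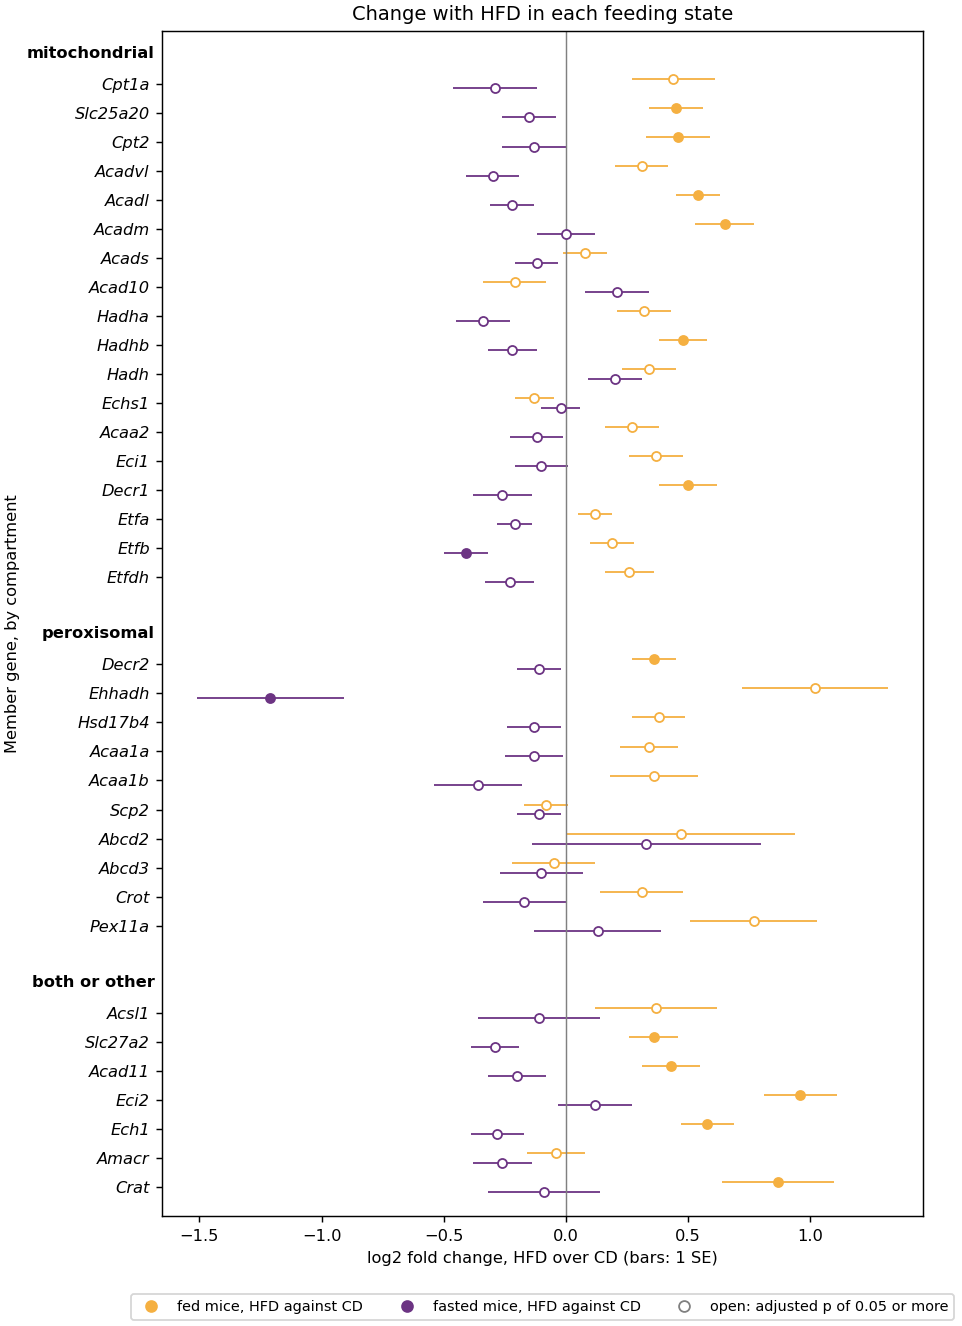
The log2 fold change from CD to HFD (horizontal axis) of each of the 35 members, grouped by compartment, in fed mice (orange) and in fasted mice (purple), with bars of 1 standard error and filled points for an adjusted p under 0.05. Most orange points lie above 0 and most purple points below it (30 of 35 in each case), with Ehhadh at 1.02 and -1.21.

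Activation makes the acyl-CoA on which all later steps depend. Acsl1, the main long-chain acyl-CoA synthetase of liver, measured 1108, 1091, 1604 and 1216 CPM in CD fed livers and 2583, 2815, 2756 and 2629 CPM in CD fast livers. On HFD it measured 1363, 1719, 2236 and 1171 CPM in fed and 2884, 2669, 3253 and 1203 CPM in fasted livers. The CD groups were far apart, while HFD fast replicate 4 fell within the HFD fed range. Acsl1 rose on CD (log2 1.10 ± 0.26 SE, adjusted p = 0.00572) and was not called on HFD (0.63 ± 0.25, adjusted p = 0.133). Slc27a2, a very long-chain acyl-CoA synthetase and fatty acid transporter of the endoplasmic reticulum and peroxisome (chr2:126552407-126588243), measured 1402, 1384, 1390 and 1535 CPM in CD fed and 3012, 3174, 2840 and 2962 CPM in CD fast livers. In HFD fed livers it measured 1813, 1985, 1812 and 1739 CPM and in HFD fast livers 2832, 2367, 2482 and 2117 CPM. The 4 groups of Slc27a2 did not overlap, and they ran in the order CD fed, HFD fed, HFD fast, CD fast. Its rise was 1.07 ± 0.10 on CD (adjusted p = 6.92e-06) and 0.41 ± 0.10 on HFD (adjusted p = 0.0179), and the difference of -0.65 ± 0.14 was called (adjusted p = 0.0244), though not without CD fed replicate 2 (adjusted p = 0.0567).

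The 3 genes of the carnitine shuttle all rose with fasting on CD, against 13.7% of all genes called higher. Cpt1a, which forms acylcarnitine at the outer mitochondrial membrane and is the rate-limiting entry step, measured 532, 491, 479 and 526 CPM in CD fed livers and 1117, 1949, 1031 and 1451 CPM in CD fast livers. It measured 606, 645, 754 and 756 CPM in HFD fed livers and 1322, 913, 1159 and 1144 CPM in HFD fast livers. Fasted libraries lay above fed libraries on each diet, and CD fast replicate 2 was the highest of all. Cpt1a rose by 1.45 ± 0.17 on CD (adjusted p = 4.5e-05) and by 0.72 ± 0.17 on HFD (adjusted p = 0.0185), and the difference of -0.73 ± 0.24 was not called (adjusted p = 0.109). On HFD the call was lost in 3 of the 16 fits without 1 library, with the highest adjusted p of 0.0679 without HFD fed replicate 1. Slc25a20, the carnitine-acylcarnitine translocase of the inner membrane, measured 97.1, 105, 117 and 103 CPM in CD fed, 189, 223, 212 and 210 CPM in CD fast, 139, 145, 173 and 121 CPM in HFD fed, and 197, 198, 204 and 154 CPM in HFD fast livers. Cpt2, which returns the acyl group to CoA inside, measured 150, 151, 163 and 155 CPM in CD fed, 294, 314, 295 and 293 CPM in CD fast, 190, 209, 261 and 189 CPM in HFD fed, and 330, 265, 295 and 202 CPM in HFD fast livers. For both genes CD fed libraries were the lowest, every HFD fed library lay above them, and HFD fast replicate 4 fell back into the HFD fed range. Slc25a20 was called with fasting on CD (0.98 ± 0.11, adjusted p = 3.09e-05), with fasting on HFD (0.38 ± 0.11, adjusted p = 0.0417) and with HFD in fed mice (0.45 ± 0.11, adjusted p = 0.0236). Cpt2 was called with fasting on CD (0.95 ± 0.13, adjusted p = 0.00013) and with HFD in fed mice (0.46 ± 0.13, adjusted p = 0.0431). The smaller calls were not stable to single libraries: without HFD fed replicate 3 the diet effect in fed mice had an adjusted p of 0.0808 for Slc25a20 and 0.145 for Cpt2. The fasting call of Slc25a20 on HFD was lost in 10 of the 16 fits (adjusted p of at most 0.117, without HFD fast replicate 3).

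The acyl-CoA dehydrogenases carry out the first oxidation of each round, each for a range of chain lengths. Acadl (long chain, chr1:66830839-66863277) measured 193, 199, 191 and 170 CPM in CD fed, 375, 393, 376 and 382 CPM in CD fast, 239, 277, 310 and 266 CPM in HFD fed, and 369, 315, 340 and 289 CPM in HFD fast livers. The CD fast libraries were the highest, and the HFD groups lay between the CD groups and overlapped each other. Acadl rose by 1.02 ± 0.09 with fasting on CD (adjusted p = 5.78e-06) and by 0.54 ± 0.09 with HFD in fed mice (adjusted p = 0.00292), and its fasting change on HFD was 0.27 ± 0.09 (adjusted p = 0.081). The difference of -0.75 ± 0.13 had the smallest adjusted p of any member (0.0114) and stayed under 0.05 without any 1 library (at most 0.0292). Acadm (medium chain) measured 344, 357, 392 and 337 CPM in CD fed, 843, 712, 892 and 781 CPM in CD fast, 497, 562, 685 and 500 CPM in HFD fed, and 901, 820, 849 and 653 CPM in HFD fast livers. Its mean was 807 CPM in CD fast and 806 CPM in HFD fast livers, and in fed mice HFD was higher by 0.65 ± 0.12 (adjusted p = 0.00564). Acadm rose with fasting on CD (1.17 ± 0.12, adjusted p = 1.83e-05) and on HFD (0.52 ± 0.12, adjusted p = 0.0176, 0.0668 without HFD fed replicate 1), with an interaction of -0.65 ± 0.17 (adjusted p = 0.0559). Acad10 measured 34.3, 41.3, 37 and 37.1 CPM in CD fed, 40.3, 54.4, 44.5 and 50.7 CPM in CD fast, 30.1, 32, 31.6 and 35.3 CPM in HFD fed, and 48.7, 71.4, 42.8 and 57.6 CPM in HFD fast livers. The fasted and fed libraries of Acad10 overlapped on CD and were separate on HFD, where the rise was 0.77 ± 0.13 (adjusted p = 0.00329). On CD the change of Acad10 was 0.34 ± 0.13 (adjusted p = 0.0693), and the interaction was not called (adjusted p = 0.212). Of the 100-base windows of its transcript 10.4% recur in Acad12, whose counts came to 47.2% of its own, so reads of the pair could have been mixed. The other dehydrogenases, Acadvl (very long chain), Acad11 and Acads (short chain), rose with fasting on CD by 0.68, 0.87 and 0.37, and none of the 3 was called on HFD (0.07, 0.24 and 0.17).

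The hydration, second oxidation and thiolysis of long chains take place on the mitochondrial trifunctional protein, of which Hadha (chr5:30118304-30155162) encodes the α and Hadhb (chr5:30155248-30184593) the β subunit. Hadha measured 396, 408, 408 and 363 CPM in CD fed, 797, 896, 732 and 769 CPM in CD fast, 438, 528, 533 and 465 CPM in HFD fed, and 725, 580, 686 and 531 CPM in HFD fast livers. Hadhb measured 237, 211, 243 and 206 CPM in CD fed, 513, 517, 472 and 499 CPM in CD fast, 269, 341, 336 and 301 CPM in HFD fed, and 488, 370, 444 and 416 CPM in HFD fast livers. The pair kept the same order of groups, with CD fed lowest and CD fast highest. Hadha rose by 1.02 ± 0.11 on CD (adjusted p = 2.1e-05) and by 0.36 ± 0.11 on HFD (adjusted p = 0.0499), a difference of -0.66 ± 0.15 (adjusted p = 0.0344). Hadhb rose by 1.16 ± 0.10 on CD, with the smallest adjusted p of the members (4.21e-06), and by 0.46 ± 0.10 on HFD (adjusted p = 0.0114), a difference of -0.70 ± 0.14 (adjusted p = 0.0205). The HFD fasting call of Hadha was lost in 14 of the 16 fits without 1 library (adjusted p of at most 0.153, without HFD fed replicate 1). The interaction of Hadhb was lost without CD fed replicate 2 only (adjusted p = 0.0509). That of Hadha was lost in 10 such fits (adjusted p of at most 0.0751, without HFD fed replicate 3) and held in the 6 that left out CD fast replicate 1, 3 or 4, replicate 1 or 4 of HFD fed, or HFD fast replicate 1. Windows of 100 bases of the Hadhb transcript recur in the pseudogene Gm13910 (52.8% of windows), whose own counts came to 0.97% of those of Hadhb. Acaa2, the mitochondrial 3-ketoacyl-CoA thiolase, measured 823, 948, 995 and 954 CPM in CD fed, 1049, 1094, 1202 and 1087 CPM in CD fast, 1088, 1238, 1226 and 945 CPM in HFD fed, and 1110, 1080, 1061 and 838 CPM in HFD fast livers. Its CD fast libraries lay above its CD fed libraries, but the change of 0.25 ± 0.11 was not called (adjusted p = 0.111), and the estimate on HFD was -0.14 ± 0.11 (adjusted p = 0.466). Of the enzymes for shorter chains, the 3-hydroxyacyl-CoA dehydrogenase Hadh rose on CD (0.63, adjusted p = 0.00126) and on HFD (0.49, adjusted p = 0.0179), while the hydratase Echs1 had estimates of -0.01 and 0.11, neither called.

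**Figure D3:**
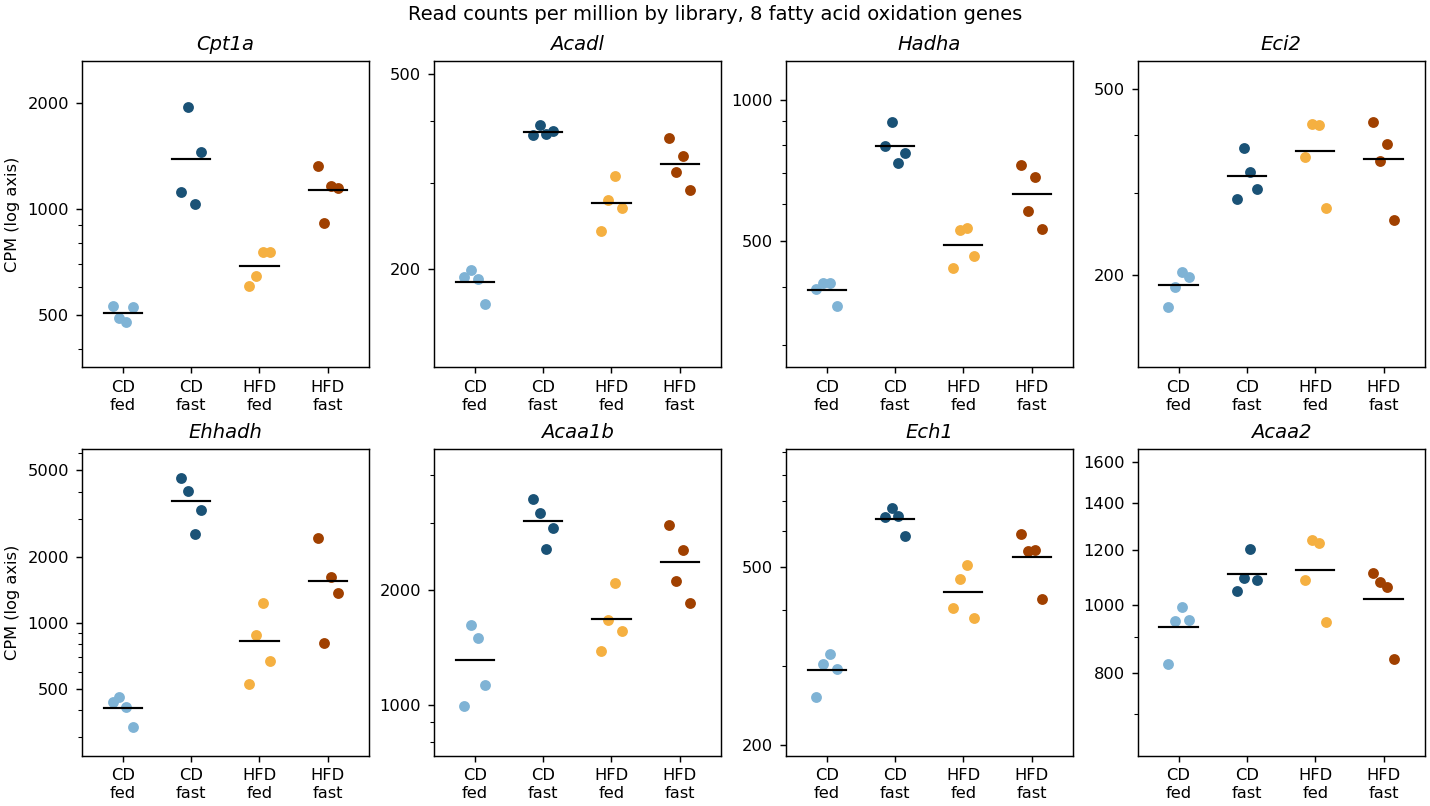
CPM on a log axis in each library (points) and the group mean (bars) of 8 members in the CD fed, CD fast, HFD fed and HFD fast groups, 4 libraries each. For Ehhadh the CD fed libraries sit between 334 and 457 CPM and the CD fast libraries between 2572 and 4637 CPM, whereas the groups of Acaa2 lie close together and for Eci2 only the CD fed libraries lie apart from the rest.

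Unsaturated fatty acids need auxiliary enzymes that move or reduce double bonds. All 5 of these members rose with fasting on CD, where 13.7% of all genes were called higher. Eci2, an enoyl-CoA δ-isomerase of peroxisomes and mitochondria (chr13:34977748-35027096), measured 171, 188, 203 and 198 CPM in CD fed, 291, 375, 333 and 306 CPM in CD fast, 359, 421, 419 and 279 CPM in HFD fed, and 426, 351, 382 and 263 CPM in HFD fast livers. Only the CD fed libraries stood apart, and the other 3 groups overlapped. Eci2 rose with fasting on CD (0.78 ± 0.15, adjusted p = 0.00172) and with HFD in fed mice (0.96 ± 0.15, adjusted p = 0.00174), the largest among the members called in fed mice, whereas the change with fasting on HFD was -0.05 ± 0.15 (adjusted p = 0.849). The interaction was -0.84 ± 0.21 (adjusted p = 0.047), and it was called without CD fast replicate 1, HFD fed replicate 4 or HFD fast replicate 1 and lost in the other 13 such fits (adjusted p of at most 0.0996, without HFD fed replicate 3). Ech1, a dienoyl-CoA isomerase of both organelles (chr7:28825217-28832247), measured 256, 304, 319 and 295 CPM in CD fed, 645, 677, 650 and 584 CPM in CD fast, 404, 469, 504 and 385 CPM in HFD fed, and 592, 541, 544 and 424 CPM in HFD fast livers. Decr1, the mitochondrial dienoyl-CoA reductase (chr4:15917240-15945507), measured 175, 182, 236 and 192 CPM in CD fed, 450, 465, 404 and 429 CPM in CD fast, 248, 301, 322 and 240 CPM in HFD fed, and 416, 356, 369 and 322 CPM in HFD fast livers. In both genes each HFD fed library lay above each CD fed library and below each CD fast library. Ech1 rose by 1.12 ± 0.12 with fasting on CD (adjusted p = 1.62e-05) and was not called with fasting on HFD (0.26 ± 0.11, adjusted p = 0.174), a difference of -0.87 ± 0.16 (adjusted p = 0.0164). Decr1 rose by 1.15 ± 0.12 on CD (adjusted p = 1.62e-05) and by 0.40 ± 0.12 on HFD (adjusted p = 0.0461), a difference of -0.76 ± 0.17 (adjusted p = 0.0287). The HFD fasting call of Decr1 was lost in 11 of the 16 fits (adjusted p of at most 0.142, without HFD fed replicate 1), and its interaction was lost without CD fed replicate 1, 2 or 4, CD fast replicate 2, replicate 2 or 3 of HFD fed, or replicate 3 or 4 of HFD fast (adjusted p of at most 0.0637). The isomerase Eci1 and the peroxisomal reductase Decr2 rose with fasting on both diets, by 0.95 and 0.83 on CD and by 0.48 and 0.36 on HFD.

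Electron transfer flavoprotein passes electrons from the dehydrogenases to its ubiquinone oxidoreductase. Its 2 subunits differed in their calls, and the difference between them was not tested. Etfb (chr7:43444083-43457800) measured 217, 257, 241 and 246 CPM in CD fed, 357, 421, 364 and 345 CPM in CD fast, 259, 290, 281 and 265 CPM in HFD fed, and 316, 288, 273 and 245 CPM in HFD fast livers. The CD fast libraries of Etfb lay above the other 12, which ran from 217 to 316 CPM. Of the windows of its transcript 65.2% also belong to Gm45233, a gene annotated over its exons on the same strand. Gm45233 is not among the 46078 genes of the count table. Etfb rose with fasting on CD (0.63 ± 0.09, adjusted p = 0.000208), had a change of 0.04 ± 0.09 on HFD (adjusted p = 0.839), and was lower on HFD in fasted mice (-0.41 ± 0.09, adjusted p = 0.0156). The interaction was -0.59 ± 0.13 (adjusted p = 0.0268). It was lost without CD fed replicate 1, HFD fed replicate 2, HFD fed replicate 3 or HFD fast replicate 3 (adjusted p of at most 0.0583), and the diet call in fasted mice was lost without HFD fast replicate 4 (adjusted p = 0.0512). Etfa was not called in any comparison by edgeR with all libraries. Its smallest adjusted p was 0.0591, with fasting on HFD, at -0.24 ± 0.07. Group means of Etfa were 294, 314, 319 and 271 CPM in CD fed, CD fast, HFD fed and HFD fast livers. Every HFD fast library of Etfa lay below every CD fast library (-0.21 ± 0.07, adjusted p = 0.0863). In fasted mice DESeq2 called Etfa lower on HFD, as did edgeR without HFD fast replicate 2. Etfdh, the oxidoreductase, measured 318, 333, 349 and 300 CPM in CD fed, 680, 642, 616 and 580 CPM in CD fast, 369, 405, 426 and 356 CPM in HFD fed, and 600, 518, 583 and 444 CPM in HFD fast livers. Fasted libraries of Etfdh lay above fed libraries on each diet. It rose by 0.95 ± 0.10 on CD (adjusted p = 1.9e-05) and by 0.46 ± 0.10 on HFD (adjusted p = 0.0119).

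In the peroxisomal cycle the widest movement was that of Ehhadh, the bifunctional enzyme that hydrates and oxidises straight-chain and dicarboxylic acyl-CoA (chr16:21761287-21787807). It measured 434, 457, 411 and 334 CPM in CD fed and 4637, 4014, 2572 and 3311 CPM in CD fast livers. On HFD it measured 527, 880, 1237 and 674 CPM in fed and 2465, 809, 1618 and 1370 CPM in fasted livers. The CD fed and CD fast libraries lay at the extremes, while HFD fast replicate 2 fell among the HFD fed libraries. Ehhadh rose by 3.15 ± 0.32 on CD (8.89-fold, adjusted p = 1.62e-05), and its change on HFD was 0.92 ± 0.30 (1.89-fold, adjusted p = 0.0699). The interaction of -2.24 ± 0.43 was called (adjusted p = 0.0165) and stayed so without any 1 library (adjusted p of at most 0.0388). In fasted mice Ehhadh was lower on HFD (-1.21 ± 0.30, 0.43-fold, adjusted p = 0.025), and this call was lost in 4 of the 16 fits, without CD fast replicate 1, CD fast replicate 2, HFD fast replicate 3 or HFD fast replicate 4 (adjusted p of at most 0.074). In fed mice the change with HFD was 1.02 ± 0.30 (adjusted p = 0.0514), with every HFD fed library above every CD fed library.

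The other enzymes of that cycle moved less. Hsd17b4, the second bifunctional enzyme, which also serves branched chains, measured 470, 512, 580 and 514 CPM in CD fed, 905, 922, 868 and 811 CPM in CD fast, 636, 686, 790 and 593 CPM in HFD fed, and 895, 790, 859 and 650 CPM in HFD fast livers. It rose on CD (0.75 ± 0.11, adjusted p = 0.00029), and HFD fast replicate 4 lay within the HFD fed range, where the change was 0.24 ± 0.11 (adjusted p = 0.197). The thiolases Acaa1a and Acaa1b are near-identical copies on chromosome 9, and 21.6% and 22.6% of the 100-base windows of their transcripts recur in the other copy, so their reads could have been split or lost. Acaa1b measured 993, 1617, 1498 and 1124 CPM in CD fed, 3462, 3186, 2557 and 2899 CPM in CD fast, 1382, 1671, 2084 and 1561 CPM in HFD fed, and 2960, 2109, 2546 and 1845 CPM in HFD fast livers. Acaa1a measured 165, 200, 197 and 199 CPM in CD fed, 389, 499, 391 and 381 CPM in CD fast, 217, 271, 253 and 225 CPM in HFD fed, and 445, 373, 368 and 329 CPM in HFD fast livers. Fasted libraries lay above fed libraries for both copies on CD and for Acaa1a on HFD. Acaa1b rose by 1.21 ± 0.19 on CD (adjusted p = 0.000347), with 0.50 ± 0.18 on HFD (adjusted p = 0.104). Acaa1a rose by 1.13 ± 0.12 on CD (adjusted p = 1.64e-05) and by 0.65 ± 0.12 on HFD (adjusted p = 0.0042). Amacr, the racemase for branched acyl-CoA, rose on CD by 0.36 ± 0.12 (adjusted p = 0.0316), a call lost in 5 of the 16 fits without 1 library (adjusted p of at most 0.0816, without CD fast replicate 2). Scp2, the sterol carrier thiolase, had the highest level per transcript length in CD fed livers and was not called in any comparison, with means of 4558, 4477, 4306 and 4147 CPM in CD fed, CD fast, HFD fed and HFD fast livers.

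Transfer into and out of peroxisomes, and their number, are served by the remaining members. Crot, which exports medium chains as carnitine esters, measured 844, 589, 670 and 597 CPM in CD fed, 1760, 1535, 1245 and 1221 CPM in CD fast, 780, 995, 794 and 788 CPM in HFD fed, and 1480, 896, 1340 and 1393 CPM in HFD fast livers. Pex11a, a membrane protein of peroxisome division, measured 101, 129, 156 and 127 CPM in CD fed, 305, 314, 347 and 280 CPM in CD fast, 207, 186, 315 and 166 CPM in HFD fed, and 399, 330, 472 and 161 CPM in HFD fast livers. On HFD the fasted replicate 2 of Crot fell within the fed range, and the fasted replicate 4 of Pex11a lay below every fed library of that diet. Crot rose on CD (1.09 ± 0.17, adjusted p = 0.000388) and on HFD (0.61 ± 0.17, adjusted p = 0.0382, 0.109 without HFD fed replicate 1), and Pex11a rose on CD (1.28 ± 0.26, adjusted p = 0.00272) and was not called on HFD (0.64 ± 0.26, adjusted p = 0.134). Crat, which exchanges short acyl groups with carnitine, rose on CD by 1.65 ± 0.23 (adjusted p = 0.00017), with means of 69.8 ± 15.6 CPM (SD, n = 4) in CD fed and 219 ± 19.1 CPM in CD fast livers, and was higher on HFD in fed mice by 0.87 ± 0.23 (adjusted p = 0.0311, 0.11 without HFD fed replicate 3). The peroxisomal acyl-CoA importers Abcd2 and Abcd3 were not called in any comparison, and neither had an unadjusted p under 0.05 in any of them. Abcd2 ranged from 7.2 to 58.2 CPM among the CD fed libraries alone.

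Mitochondrial and peroxisomal members had similar median changes, and no test of the difference between the organelles was made. With fasting on CD the median log2 change was 0.95 over the 18 mitochondrial members (14 called) and 0.96 over the 10 peroxisomal members (7 called). On HFD it was 0.37 and 0.43, with 10 and 3 called. The diet change in fed mice was 0.33 and 0.36, with 6 and 1 called, and in fasted mice -0.18 and -0.12, with 1 called in each. Of all genes 25.2%, 8.86%, 7.50% and 7.70% were called in these 4 comparisons, so that the single calls lay near the shares of all genes. The interaction medians were -0.59 and -0.48. Per library, the mean log2 CPM of the mitochondrial members, each gene centred on its mean over 16 libraries, was -0.42 ± 0.08 (SD, n = 4) for CD fed, 0.35 ± 0.06 for CD fast, -0.12 ± 0.13 for HFD fed and 0.19 ± 0.13 for HFD fast livers. That of the peroxisomal members was -0.58 ± 0.14, 0.48 ± 0.06, -0.17 ± 0.17 and 0.27 ± 0.20. Peroxisomal minus mitochondrial, the centred level was -0.16 ± 0.15 for CD fed and 0.13 ± 0.07 for CD fast livers, with no overlap between those groups. Without Ehhadh, left out because its values stood out, it was -0.06 ± 0.14 and 0.00 ± 0.06, and the groups overlapped. For HFD fed and HFD fast livers the difference over all members was -0.04 ± 0.05 and 0.08 ± 0.12, and those groups overlapped. The 7 members of both or other sites all rose with fasting on CD (median 1.07), and 1 of them, Slc27a2, rose with fasting on HFD.

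**Figure D4:**
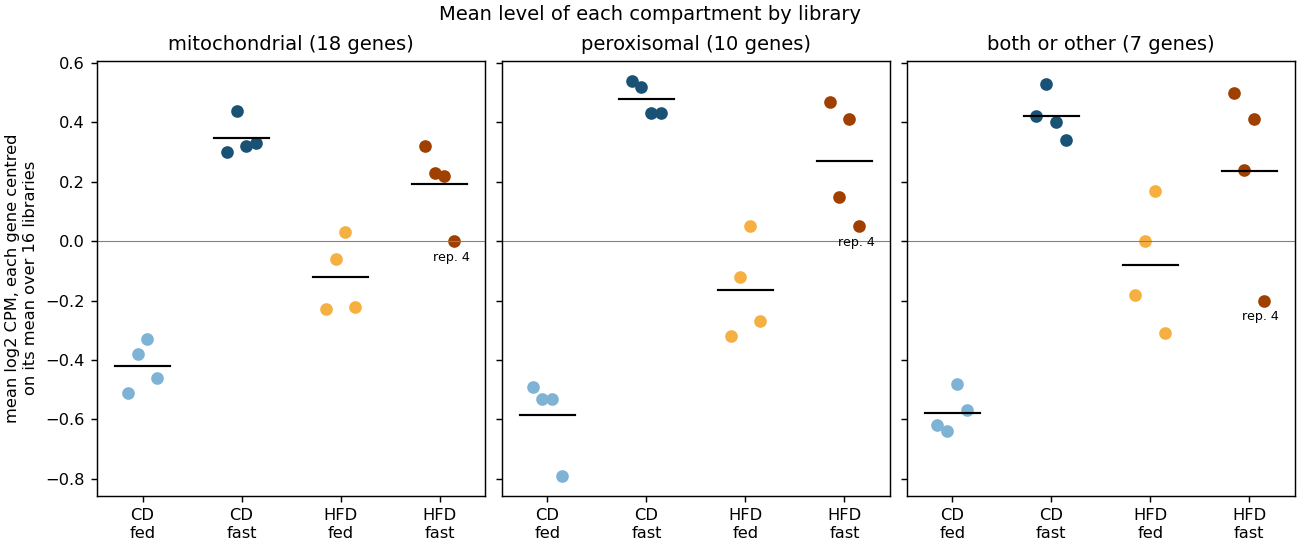
Mean log2 CPM of the members of each compartment in each library (points; bars are group means), with each gene centred on its mean over the 16 libraries. CD fed libraries are lowest and CD fast libraries among the highest in each panel, and HFD fast replicate 4 (labelled) is at 0.00, 0.05 and -0.20.

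The group means of 24 of the 35 members ran in the order CD fed, HFD fed, HFD fast, CD fast. The lowest mean was that of CD fed livers in 29 members, and the highest that of CD fast livers in 26. These counts restate the libraries of the comparisons above, and how many of all genes ran so was not counted. Of the neighbouring groups in that order, the CD fed and HFD fed libraries were fully separate in 23 members (15.7% of all genes), those of HFD fed and HFD fast in 10 (16.7% of all genes), and those of HFD fast and CD fast in 6 (14.0% of all genes). By mean, Hadh and Pex11a were highest in HFD fast livers, and so were Acad10 and Abcd2, while Acaa2, Eci2 and Etfa were highest in HFD fed livers. Between genes, levels were compared per kilobase of the principal transcript. In CD fed livers Scp2 was highest at 1727 CPM per kb, followed by Acaa1b (774) and Acaa2 (613), and the lowest were Abcd2 (4.39), Acad10 (9.78) and Crat (16.5). In CD fast livers Ehhadh reached 1219 CPM per kb, after Acaa1b (1792) and Scp2 (1696).

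Among related genes outside the 35, calls are read against the shares of all genes given above (25.2% with fasting on CD, 8.86% with fasting on HFD, 7.50% and 7.70% with HFD in fed and fasted mice, and 2.59% in the interaction). Of 16 tested genes of other mitochondrial steps (17 listed) 4 rose and 3 fell with fasting on CD, with a median of -0.07, and 2 rose on HFD, led by Acad12 (1.07 ± 0.20, adjusted p = 0.00585). Slc22a5, the plasma membrane carnitine transporter, rose most clearly on CD (1.95 ± 0.26, adjusted p = 0.00011) and was the only one called in the interaction (-1.62 ± 0.36, adjusted p = 0.029). On CD its mean was 30.6 ± 3.23 CPM in fed and 118 ± 12.6 CPM in fasted livers, and on HFD 77.7 ± 34.1 CPM and 97.6 ± 31.6 CPM. In fed mice 1 was higher and 2 lower on HFD, and in fasted mice 0 were called by edgeR's quasi-likelihood test, with 3 at an unadjusted p under 0.05. Of 30 other peroxisomal genes 15 rose and 3 fell with fasting on CD (median 0.24), 6 rose on HFD, and 1, the peroxisome division gene Pex11g, was called in the interaction (0.67 ± 0.10, adjusted p = 0.00379). The fatty aldehyde dehydrogenase Aldh3a2 had the smallest adjusted p of these with fasting on CD, at 448 ± 60.6 CPM in CD fed and 1368 ± 215 CPM in CD fast livers (1.61 ± 0.16, adjusted p = 1.29e-05). In fed mice 1 of the 30 was higher and 3 lower on HFD, and in fasted mice 2 were higher and 2 lower, with Hacl1, the α-oxidation lyase, among the lower (adjusted p = 0.0153). Of 17 regulators of the pathway 3 rose and 2 fell with fasting on CD, and 2 fell on HFD, shares near those of all genes. Acaca, the acetyl-CoA carboxylase that makes the Cpt1a inhibitor malonyl-CoA, fell by 2.02 ± 0.12 on CD (adjusted p = 1.28e-07) and by 1.03 ± 0.12 on HFD (adjusted p = 0.000302), with means of 289 ± 45.8, 71.1 ± 8.55, 145 ± 12 and 70.8 ± 7.76 CPM in CD fed, CD fast, HFD fed and HFD fast livers. The interaction of Acaca was 0.99 ± 0.17 (adjusted p = 0.0114), and it also fell with HFD in fed mice (adjusted p = 0.00031). Esrra, a nuclear receptor of mitochondrial genes, was the other regulator called in the interaction (-0.92 ± 0.22, adjusted p = 0.0401), with means of 20.4 CPM in CD fed and 37.2 CPM in CD fast livers against 28.9 CPM and 27.9 CPM in the fed and fasted livers of HFD mice. Mlycd, which degrades malonyl-CoA, was lower on HFD in fasted mice (-0.35 ± 0.09, adjusted p = 0.0248).

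Markers of other cells moved with some groups. Of all genes 13.7% were called higher and 11.5% lower with fasting on CD, and 4.78% and 4.07% with fasting on HFD. With HFD the shares were 3.28% higher and 4.22% lower in fed mice, and 3.05% and 4.65% in fasted mice. In the interaction they were 1.23% positive and 1.36% negative. With fasting on CD 2 of 5 Kupffer cell markers fell (summed level 209 to 357 CPM in CD fed and 139 to 216 CPM in CD fast libraries), as did 3 of 5 endothelial markers (226 to 255 and 161 to 210 CPM) and 1 of 5 stellate cell markers (204 to 265 and 131 to 216 CPM). Of 4 pericentral hepatocyte markers 2 rose and 1 fell, with sums of 5358 to 8657 CPM in CD fed and 12434 to 14710 CPM in CD fast libraries, and of 4 periportal markers 1 rose and 1 fell (2248 to 2575 and 2116 to 2511 CPM). With HFD in fasted mice 2 endothelial and 1 stellate cell markers were higher, with endothelial sums of 196 to 261 CPM in HFD fast libraries, 1 erythroid marker was higher, and 1 periportal marker was lower (sums of 1237 to 2157 CPM in HFD fast libraries). With fasting on HFD 1 pericentral marker rose and 1 periportal marker fell, and in the interaction 1 periportal marker was called negative and 1 erythroid marker positive. Of 5 hepatocyte markers 1 fell with fasting on CD (median log2 -0.38, summed level 102550 to 133569 CPM in CD fed and 76972 to 107118 CPM in CD fast libraries). With fasting on HFD 0 were called by edgeR and 3 had an unadjusted p under 0.05 (median -0.56), and the sums did not overlap, at 104837 to 132322 CPM in fed and 66712 to 99692 CPM in fasted libraries. None of 5 cholangiocyte markers was called in any comparison (at an unadjusted p under 0.05 by edgeR there were 2 with fasting on CD, 1 with fasting on HFD and 2 with HFD in fed mice), and of 5 erythroid markers 1 fell with fasting on each diet. None of these markers was at 0 in a whole group, whereas the adipocyte marker Lep was at 0 in both CD groups. Their part in the changes above was not tested, and in bulk tissue fewer cells of a type and less RNA per cell cannot be told apart.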

How the data were processed

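Liver poly(A) RNA was sequenced by the authors as 100-base paired-end reads, and, per the submitters' processing notes, CASAVA 1.8.4, TopHat2 2.0.11 and featureCounts were used with the mm10 build (GRCm38). The deposited table holds raw counts per gene (46078 genes, 16 libraries). Per the study's methods, alignment used a first-strand library setting and the annotation came from Illumina iGenomes. Its release, and whether counting used strand, are not given in the sources used here, so opposite-strand overlaps (Acadvl, Acaa1a, Acaa1b and others) may share reads. Gene names were matched by identifier for 45143 genes.

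The main test was the two-sided quasi-likelihood test of edgeR 4.0.16 in R 4.3.3 (filterByExpr, TMM scaling, a single model of the 4 group means with 12 residual degrees of freedom, Benjamini-Hochberg adjustment over 15075 genes). The contrasts were fasting on each diet, HFD within each feeding state, and the interaction. CPM were computed from the deposited counts on TMM-scaled totals. A gene's detection floor of 3 counts lay between 0.0536 and 0.0767 CPM, which covers counting error only. Alternatives were limma 3.58.1, DESeq2 1.42.0, other scalings and filters, the compared groups alone, a replicate block and each library left out. Per-library values were given for members with a central step, for those called in the interaction and for those called among the 5 with the smallest adjusted p in a pairwise comparison. Genes of related lists were named where called in the interaction or first in their list. The members and lists were chosen with earlier results of these data known.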

Additional observations from a re-analysis of the deposited data

Results flagged for a closer look

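In 8 of 140 combinations of a member and a group, 1 library lay far from the other 3 (the gap past Dixon's critical value for a group of 4), where chance gives about 1 in 20. These were Slc27a2 in CD fed replicate 4 (1535 CPM), Slc25a20 in HFD fast replicate 4 (154 CPM), Cpt2 in CD fast replicate 2 (314 CPM), Acaa2 in HFD fast replicate 4 (838 CPM), Acaa1a in CD fed replicate 1 (165 CPM) and in CD fast replicate 2 (499 CPM), Amacr in CD fed replicate 4 (164 CPM) and Crot in HFD fed replicate 2 (995 CPM).

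The fasting change differed between the diets, by the interaction term, in 9 members, against 2.59% of all genes called. Of these only Acadl, Ech1 and Ehhadh were called whichever of the 16 libraries was left out. The log2 change on HFD minus that on CD was -0.65 for Slc27a2, -0.75 for Acadl, -0.66 for Hadha, -0.70 for Hadhb, -0.84 for Eci2, -0.76 for Decr1, -0.87 for Ech1, -0.59 for Etfb and -2.24 for Ehhadh.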

How the results depend on the processing

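The count of members called with fasting on CD (28) was 26 at an absolute log2 change of at least 0.5. How many of all genes passed that cut was not counted, in this or the other comparisons. Under the other alternatives run, those with 1 library left out included, the count was 27 to 29. The share of all genes called ran from 12.3% (no filter on low counts) to 29.4% (at least 1 CPM in 4 libraries). The count with fasting on HFD (14) was 7 with only the compared groups in the fit (6.95% of all genes), 5 at an absolute log2 change of at least 0.5 and 4 to 18 with 1 library left out. With HFD in fed mice (12) it was 19 by DESeq2 (10.8% of all genes) and 22 with total count scaling (8.83%). At an absolute log2 change of at least 0.5 it was 6. It was 5 to 14 with 1 library left out, where 3.37% to 8.29% of all genes were called. With HFD in fasted mice (2) it was 6 by DESeq2 (12.5% of all genes). It was 1 at an absolute log2 change of at least 0.5 and 0 to 4 with 1 library left out (3.51% to 8.9% of all genes in the latter fits). With only the compared groups in the fit it was 0 by edgeR, where 0.623% of all genes were called. In that fit 7 members had an unadjusted p under 0.05, a threshold that 25.9% of all genes passed in the main fit. The share of all genes past it with only the compared groups was not counted. The interaction (9) gave 20 by DESeq2, where 7.74% of all genes were called against 2.59% by edgeR, and 4 to 14 with 1 library left out, where 0.963% to 3.01% were. With total count scaling the median log2 change with HFD in fasted mice was -0.03 for mitochondrial and 0.03 for peroxisomal members. The cause of these shifts was not tested. Same-numbered libraries of different groups correlated at -0.243 to 0.662 (median 0.0582, 24 pairs), and 5 of 16 libraries correlated best with their own number. Not every pair was over 0.1 in any 2 groups compared, HFD fed and HFD fast included (0.0583 to 0.662), so the numbers were not taken to pair the libraries. With a replicate block the counts were 29, 15, 13, 2 and 13 in the order of the 5 comparisons. Of all genes 26.2%, 9.55%, 8.01%, 8.56% and 2.38% were called with that block, in the same order.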
